A study of Caenorhabditis elegans with 3 samples.

Results

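Among the strongest peaks of RPC-1 in young adult *Caenorhabditis elegans*, 3 lay at the protein-coding genes *zip-7*, *lips-10* and the overlapping pair W08A12.3 and W08A12.2, with no annotated small RNA gene nearby. They were chosen from the authors' reproducible peak list on genome build ce11 by 3 conditions. The peak signal was above 5000, and no small RNA gene lay within 200 bp of the summit. The peak also overlapped a listed gene or had its summit within 500 bp of that gene's transcription start site (TSS). Small RNA genes were tRNA, rRNA, snRNA, snoRNA, scRNA and miRNA genes and tRNA and rRNA pseudogenes. Genes with symbols of spliced leader, signal recognition particle, RNase P, RNase MRP or Y RNA genes were counted as well. The list held 1914 peaks, of which 84 (4.39%) were above 5000, and 8 of these 84 (9.52%) had no small RNA gene that close. The 3 sites were 3 of those 8, and W08A12.3 and W08A12.2 share 1 of them. Over the whole list 1112 of the 1914 peaks (58.1%) had no small RNA gene within 200 bp. The signal, the gene overlap and the distance to small RNA genes chose the sites, so these values are given as a description and support nothing further.

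The assay was chromatin immunoprecipitation followed by sequencing (ChIP-seq), in whole hermaphrodites of 1 transgenic line, strain YL517, in which RPC-1 carries GFP and FLAG at its C terminus. Anti-GFP antibody was used for the immunoprecipitation, on sonicated chromatin. The 3 samples are biological replicates of 1 group, and no second genotype, stage or treatment was compared. Besides the reproducible list, the deposit holds a list called on the replicates pooled and a list for each replicate, which were made as input for the reproducibility analysis and also contain weak peaks and background.

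RPC-1 forms, as the largest subunit, part of the catalytic core of RNA polymerase III (Pol III), which transcribes tRNA genes and other genes for short RNAs. The promoter of a tRNA gene lies inside the gene, in short elements called the A box and the B box. The factor TFIIIC binds them, TFIIIB is then placed upstream of the start, and the polymerase follows, and transcription usually ends at a run of T bases. Elements of this type can also stand where no gene is annotated, such as in introns or in sequences derived from tRNA genes.

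The stretches below are those in which an A box and a B box stood at the spacing found in tRNA genes, and they are shown because none of the 3 sites carries a small RNA annotation of its own. The boxes are in capitals and each stretch is read 5′ to 3′ on the strand of the boxes. The coordinates are chrIV:16503698-16503799, minus strand, for the *zip-7* site, chrII:8441607-8441709, minus strand, for the *lips-10* site and chrV:3686038-3686138, minus strand, for the W08A12 site, on ce11 (RefSeq assembly WBcel235). The stretch chrX:13307029-13307131, plus strand, is shown for comparison and holds the annotated tRNA gene R04D3.t2, at chrX:13307034-13307106. This gene was taken because the ranks of its peak in the replicates were among the nearest to those of the *zip-7* site.
zip-7: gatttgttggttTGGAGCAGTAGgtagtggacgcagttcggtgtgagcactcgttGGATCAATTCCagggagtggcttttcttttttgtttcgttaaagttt
lips-10: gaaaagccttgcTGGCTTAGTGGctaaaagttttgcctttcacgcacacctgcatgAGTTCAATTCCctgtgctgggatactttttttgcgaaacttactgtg
W08A12: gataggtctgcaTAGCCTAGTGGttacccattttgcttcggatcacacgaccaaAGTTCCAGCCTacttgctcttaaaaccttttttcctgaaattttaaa
R04D3.t2: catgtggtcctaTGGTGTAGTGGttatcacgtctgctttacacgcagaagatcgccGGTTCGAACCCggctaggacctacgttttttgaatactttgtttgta

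The strongest site lay in *zip-7* (Y51H4A.4), which is annotated as a BZIP domain-containing protein, the class of transcription factors that bind DNA through a basic region and a leucine zipper. The gene spans chrIV:16502910-16505682 on the minus strand and has 4 exons. The peak at chrIV:16503346-16504227 was 882 bp wide and lay wholly inside the gene. Its summit, at position 16503785, fell in intron 3, which is 539 bp long, 1897 bp downstream of the TSS. The intron made up 61.1% of the peak, coding exon 26.8% and untranslated exon 12.1%. The box pair lay in the same intron, on the coding strand of *zip-7*.

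The second site lay in *lips-10* (F14E5.5), annotated as a lipase-related gene, at chrII:8439168-8442151 on the plus strand with 4 exons. The peak at chrII:8441269-8442144 was 876 bp wide. Its summit at position 8441721 fell in intron 3, which is 198 bp long, 2553 bp downstream of the TSS. Coding exon made up 55.1% of this peak, intron 28.5% and untranslated exon 16.3%. The box pair lay inside the intron and antisense to *lips-10*.

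The last site was shared by W08A12.3 and W08A12.2. W08A12.3 encodes an uncharacterized protein, spans chrV:3682853-3686469 on the plus strand and has 4 exons. W08A12.2, annotated as a neuropeptide-like protein gene, lies inside it at chrV:3684662-3685892 on the opposite strand. The peak at chrV:3685697-3686597 was 901 bp wide, overlapped W08A12.3 by 773 bp and W08A12.2 by 196 bp, and reached past the annotated end of W08A12.3. Its summit at position 3686127 fell in intron 3 of W08A12.3, which is 1653 bp long, 3274 bp downstream of that gene's TSS and 235 bp upstream of the TSS of W08A12.2. The box pair lay in the same intron, on the strand of W08A12.2. It was antisense to W08A12.3 and upstream of the TSS of W08A12.2, so the summit and the boxes stand in front of 1 gene and within an intron of the other.

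All 3 summits thus lay in intron 3 of a protein-coding gene, and none was a promoter peak of the gene that contained it. The nearest small RNA gene was *mir-1021* at 30604 bp for the *zip-7* site, *mir-85* at 48063 bp for the *lips-10* site and the snoRNA gene T27C4.7 at 23146 bp for the W08A12 site. The nearest tRNA genes were farther off, at 73521 bp from the *zip-7* summit, 190236 bp from the *lips-10* summit and 97553 bp from the W08A12 summit. The nearest protein-coding genes beyond the listed ones lay 2787 bp from the *zip-7* summit, 1046 bp from the *lips-10* summit (*eif-3.G*) and 979 bp from the W08A12 summit (*unc-132*). A 21U-RNA gene, 21ur-12188, was annotated 1941 bp from the *zip-7* summit, outside its peak. In the Ensembl annotation the peaks overlapped the 4 listed protein-coding genes and 0 non-coding genes.

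**Figure D1:**
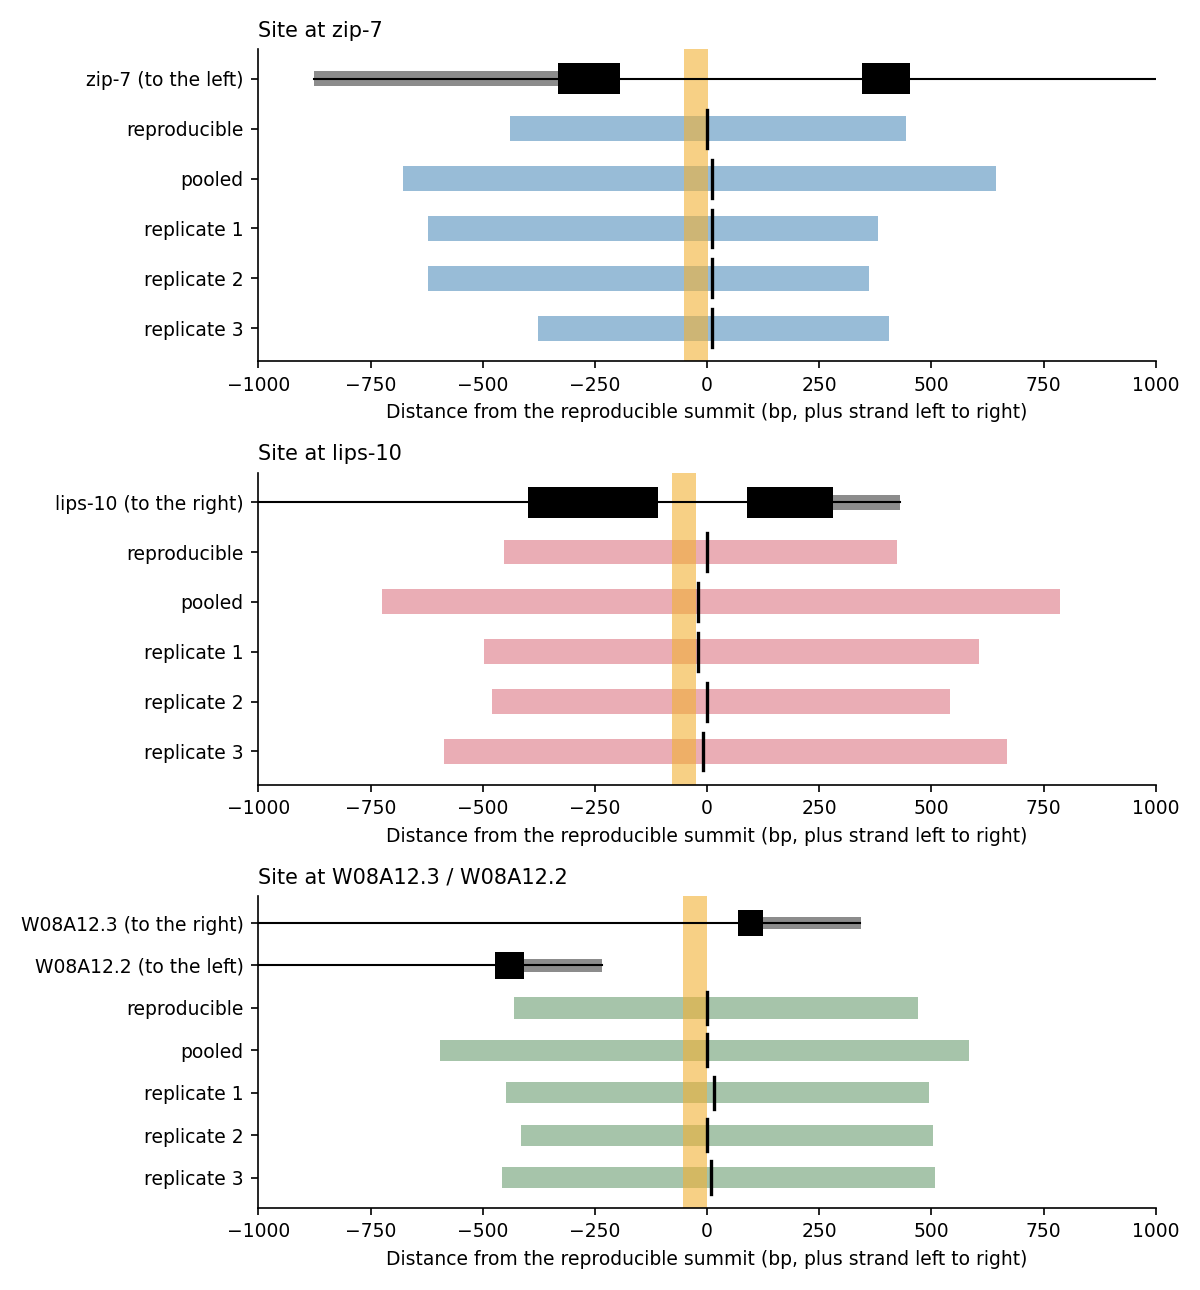
Maps of the 3 sites. The x axis is the distance from the summit of the reproducible list in bp, black boxes are coding exon, grey boxes untranslated exon and thin lines introns, with the direction of each gene given beside its name. Coloured bars are the peak in each of the 5 lists with a black tick at its summit, and the yellow band is the A and B box pair. The ticks lie within 21 bp of the reproducible summit in every list.

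By signal, the authors' peak strength on a scale of its own in each list, the *zip-7* site had 6946 and rank 15 in the reproducible list, the *lips-10* site 6082 and rank 30, and the W08A12 site 5200.3 and rank 64. The W08A12 site was therefore the site nearest to the threshold. Of the peaks with no small RNA gene within 200 bp, those just inside it were at *srt-52* with 5136 and *tlp-1* with 5088, and those just outside were at Y105C5A.15 with 4851 and at chromosome V position 3163308 with 4690.5.

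The *zip-7* site kept a place near the top in every list. It ranked 12 in the pooled list, and 15, 11 and 10 in replicates 1, 2 and 3 (12 ± 2.65, SD, n = 3), of 30000, 24182, 24563 and 30000 peaks. Its signal was 6842 in the pooled list and 2099.8, 1728 and 3233 in the 3 replicates. Relative to the strongest peak of each replicate this was 52.1%, 52.6% and 56.0%, or 53.6% ± 2.12 (SD, n = 3), so the replicates lay closer together on this scale than in raw signal.

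The *lips-10* site varied more in rank. It stood at rank 27 in the pooled list and at 47, 32 and 23 in replicates 1, 2 and 3 (34 ± 12.1, SD, n = 3). Its signal was 5528 in the pooled list and 1568, 1350.2 and 2703 in the replicates, which is 38.9%, 41.1% and 46.8% of the top signal (42.3% ± 4.08, SD, n = 3). Replicate 1 was lowest and replicate 3 highest by rank and by percent of the top signal, and by raw signal replicate 2 was lowest.

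The W08A12 site ranked lower in every other list than in the reproducible one. It stood at rank 141 in the pooled list and at 148, 195 and 126 in the replicates (156 ± 35.2, SD, n = 3). Its signal was 3666 in the pooled list and 1198, 854.4 and 1708 in the replicates, or 28.4% ± 2.11 of the top signal (SD, n = 3), against 53.8% in the reproducible list. A lower percent of the top signal outside the reproducible list was not particular to W08A12. It was 71.8% in the reproducible list and 53.6% on average in the replicates at *zip-7*, and 62.9% and 42.3% at *lips-10*. Of the 140 peaks above the W08A12 site in the pooled list, 61 overlapped a reproducible peak of higher signal than this site and 79 one of lower signal. In the replicates the peaks above it with a weaker reproducible counterpart were 85 of 147, 132 of 194 and 65 of 125. The corresponding count for the *zip-7* site was 1 of 11 in the pooled list and 3 of 14, 2 of 10 and 2 of 9 in the replicates. For the *lips-10* site it was 2 of 26 in the pooled list and 17 of 46, 5 of 31 and 2 of 22 in the replicates. The reproducible list placed the W08A12 site higher than the pooled and replicate lists did, and the reason was not tested.

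The order of the sites was the same in the 3 replicates, with *zip-7* first, *lips-10* next and W08A12 last. The pooled and reproducible lists had this order too, but they derive from the same replicates and are not separate observations. The signal of *zip-7* over that of W08A12 was 1.34 in the reproducible list, 1.87 in the pooled list, and 1.75, 2.02 and 1.89 in the replicates (1.89 ± 0.136, SD, n = 3). The percent-of-top values of *zip-7* and W08A12 did not overlap between replicates, nor did those of *lips-10* with either. Since the sites had been chosen by signal, no test was made of these differences.

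**Figure D2:**
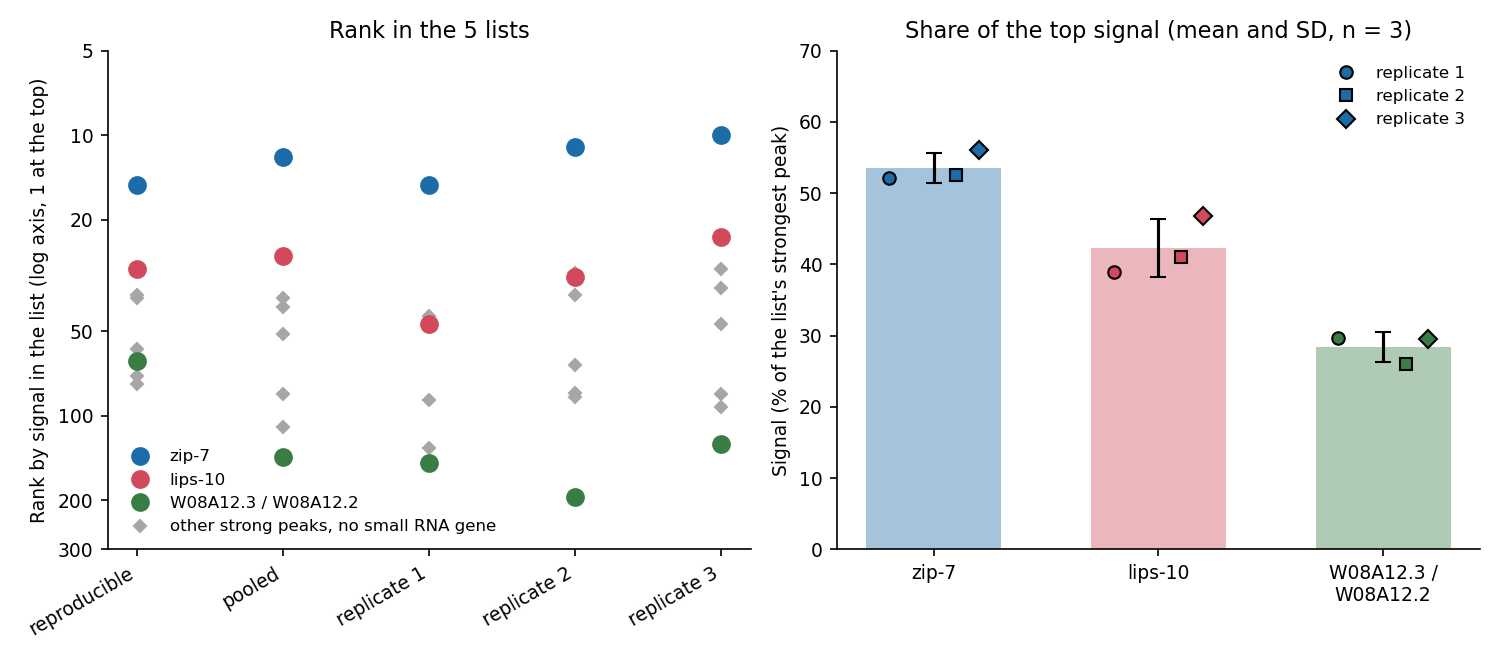
Rank and relative signal of the 3 sites. Left, rank by signal in each list on a log axis with rank 1 at the top, for the 3 sites (circles) and the 5 other peaks above 5000 with no small RNA gene (grey diamonds). Right, signal as a percentage of the strongest peak of each replicate, with bars for the mean and error bars for the SD of 3 replicates. The *zip-7* site lies between ranks 10 and 15 in all 5 lists, and the W08A12 site drops to ranks between 126 and 195 outside the reproducible list.

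The summits lay within 21 bp of the reproducible summit in every list. For the *zip-7* site they lay 12 bp from the reproducible summit in the pooled list and 12, 11 and 12 bp in the replicates (11.7 ± 0.577 bp, SD, n = 3), on the plus strand's scale. For the *lips-10* site they lay -21 bp in the pooled list and -20, 0 and -10 bp in the replicates (-10 ± 10 bp, SD, n = 3). For the W08A12 site the values were 1 bp in the pooled list and 15, 1 and 9 bp in the replicates (8.33 ± 7.02 bp, SD, n = 3). Every summit stayed in intron 3 of its gene.

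The *zip-7* peak was 1321 bp wide in the pooled list and 1003, 983 and 782 bp in the replicates (923 ± 122 bp, SD, n = 3). The *lips-10* peak was 1511 bp wide in the pooled list and 1104, 1021 and 1254 bp in the replicates (1126 ± 118 bp, SD, n = 3). The W08A12 peak was 1179 bp wide in the pooled list and 943, 918 and 963 bp in the replicates (941 ± 22.5 bp, SD, n = 3). All exceeded the median width of their list, which was 680.5 bp in the reproducible list and between 456 and 480 bp in the others. The median of the strongest 250 peaks was 918.5 bp in the reproducible list, 1241 bp in the pooled list, and 994.5, 903 and 982.5 bp in replicates 1, 2 and 3. Against these 250 the *lips-10* peak was wider than 80.4% in the pooled list and than 72.4%, 78% and 83.6% in the replicates, but than 25.2% in the reproducible list. The *zip-7* peak was wider than 52.4%, 71.6% and 9.6% in the replicates, and the W08A12 peak than 36.4%, 53.6% and 44.4%.

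Each peak had 1 summit, except that at W08A12. A second summit stood on its interval at position 3686344 in the pooled list and in replicate 1 and at 3686329 in replicate 2, with 0.47%, 5.36% and 22.3% of the signal of the first. Replicate 3 and the reproducible list had none. This second summit lies 216 bp from the first in the pooled list, over the last exon of W08A12.3. Beyond these, the strongest other peak at the listed genes was near *zip-7*, at rank 4599 of the pooled list with a signal of 24.8.

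By replicate ranks, the *zip-7* and W08A12 sites stood nearest to peaks at tRNA and snoRNA genes. Most of the 84 peaks above 5000 were of these kinds as well, 58.3% at tRNA genes and 28.6% at snoRNA genes. Likeness was the sum, over the 3 replicates, of the absolute log2 ratio of ranks, a measure that describes rank only. The peaks nearest to the *zip-7* site were at the snoRNA gene B0334.12 (1.10), the tRNA gene R04D3.t2 (1.14) and the snoRNA gene C27H6.5 (1.14). The peaks nearest to the W08A12 site were at the tRNA genes T18D3.t1 (0.30), T21B4.t1 (0.34) and Y53C10A.t1 (0.38). With signals of 4726.8, 4421.7 and 1957.7 in the reproducible list, these were not among the 84 peaks above 5000. Over that whole list 573 of 1914 peaks were at tRNA genes, and the share at the replicate ranks of the W08A12 site was not counted. For *lips-10* the nearest were a peak with no small RNA gene at the non-coding RNA genes K10H10.11 and K10H10.14 (0.62), an unannotated peak at chromosome X position 4453286 (0.68) and a peak at the snoRNA genes Y75B12B.11 and Y75B12B.12 (1.02).

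Around each summit, windows reaching 150 bp to either side were searched on both strands for the A box with at most 2 mismatches to its consensus and for the B box with at most 1 mismatch. The A box was found at 3 of the 3 sites and at 79.1% of the 1109 other peaks with no small RNA gene. It was found at 95.6% of the 573 summits at tRNA genes and in 33.7% of the 333129 windows that tile the nuclear genome. The A box was thus common in windows of any kind. The B box was found at 2 of the 3 sites, *zip-7* and *lips-10*, at 68.3% of the 1109 other peaks with no small RNA gene, at 82.7% of tRNA summits and in 3.44% of tiled windows. At W08A12 the best B box match in the printed stretch had 3 mismatches. A match describes these letters and does not show a site in use.

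The boxes were also compared by their distance from each other. The distance between the starts of the A box and the B box, measured after the matches had been seen, was 43 bp at *zip-7*, 44 bp at *lips-10* and 42 bp at W08A12. In 503 of 612 annotated tRNA genes both boxes were found, and the median distance there was 44 bp (quartiles 43 and 44 bp, with 95% of genes between 42 and 57 bp). At *lips-10* the A box had 0 mismatches and the B box 1, at *zip-7* the A box had 2 and the B box 1, and at W08A12 the A box had 1 and the B box 3. The W08A12 window held 3 B box matches with up to 3 mismatches, and the one at the spacing of tRNA genes was paired, so the spacing there was set by that choice. With at most 1 mismatch in the B box, a pair at 42 to 57 bp on 1 strand was found at 2 of the 3 sites, at 52.6% of other peaks with no small RNA gene, at 76.4% of tRNA summits and in 0.522% of tiled windows. With up to 2 mismatches it was found at the same number of sites and in 0.963% of tiled windows. With up to 3 it was found at 3 of 3, at 62.5% of those other peaks, at 92.1% of tRNA summits and in 3.62% of tiled windows. These limits were chosen after the sites had been seen.

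**Figure D3:**
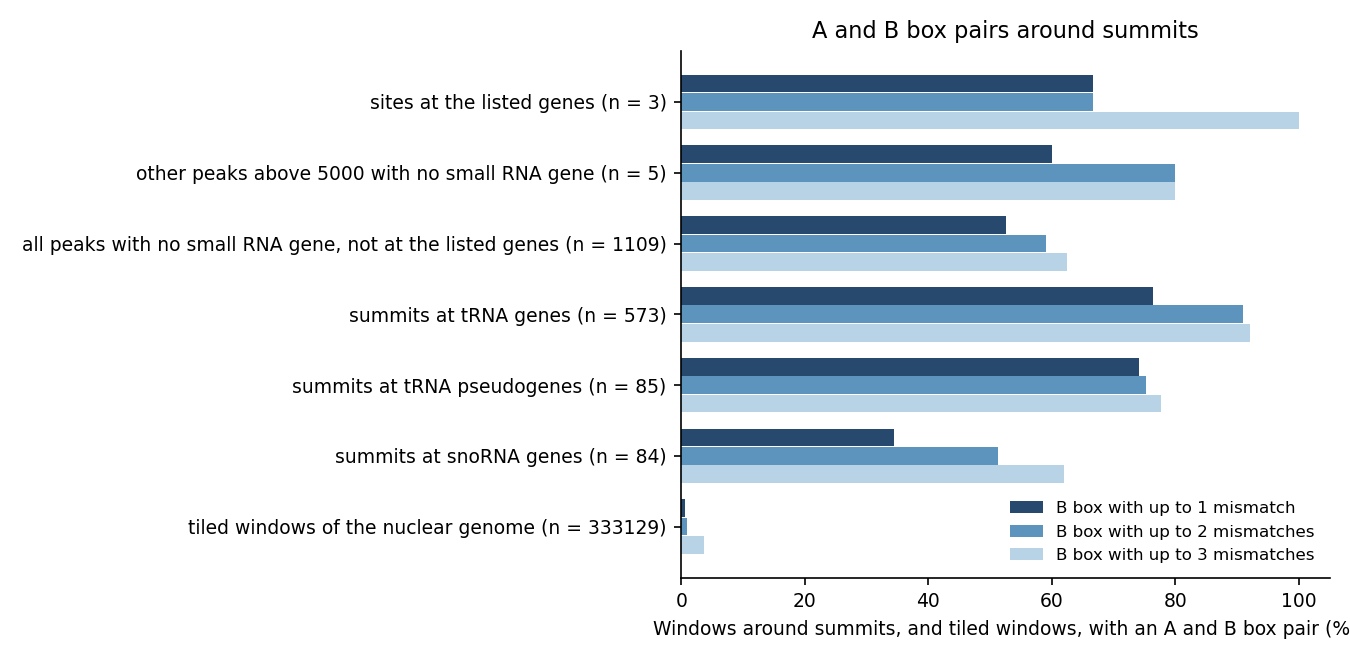
Share of windows with an A and a B box on 1 strand at the spacing of tRNA genes, in percent, for the 3 sites and for other sets of summits and tiled windows, each with its number of windows. The 3 shades are the mismatches allowed in the B box. At up to 3 mismatches the pair is in all 3 sites and in 3.62% of tiled windows. It is also in 62.5% of the other peaks with no small RNA gene and in 61.9% of snoRNA summits.

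The summits lay close to the A box. In the reproducible list the A box started 2 bp upstream of the summit at *zip-7*, read on the strand of the boxes, and 24 bp and 1 bp downstream of it at *lips-10* and W08A12. Over the replicates the A box started 9.67 ± 0.58, 14 ± 10 and 9.33 ± 7.02 bp downstream of the summit at *zip-7*, *lips-10* and W08A12 (SD, n = 3 each). At 287 isolated tRNA genes with both boxes and a reproducible summit, the A box start stood at a median of -6 bp from the summit, where negative is upstream, with quartiles of -9 and -4 bp and a 95th percentile of 6.7 bp. The 24 bp at *lips-10* lay beyond that percentile. In replicates 1, 2 and 3 the medians at isolated tRNA genes were -11, -15 and -11 bp, with 95th percentiles of 15, 18.8 and 21 bp. In the replicates the A box thus started downstream of the summit at the 3 sites and upstream of it at the median tRNA gene. The site values stayed below these percentiles except for 24 bp at *lips-10* in replicate 2 and 16 bp at W08A12 in replicate 1. A run of 4 or more T bases followed the B box within 40 bases at all 3 sites, 10 bases after it at *zip-7*, 14 at *lips-10* and 16 at W08A12. In tRNA genes with both boxes 99.4% had such a run in the same distance, at a median of 15 bases, and 44.4% of all stretches of that length on either strand hold one.

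Sequence likeness to tRNA genes as a whole differed between the sites. A profile built from 137 distinct annotated tRNA gene sequences was compared with each window, and the score is in bits, higher where the likeness is greater. The *lips-10* site scored 14.7 bits, over positions 8 to 66 of the 73 in the profile and on the strand of its boxes. The W08A12 site scored 7.8 bits over positions 3 to 53, on the strand of its boxes too. The *zip-7* site had no score above 0, although it had the highest signal of the 3. A score above 0 was found at 76.2% of other peaks with no small RNA gene, 95.5% of tRNA summits and 3.1% of every 20th tiled window. The *lips-10* score was reached by 50.4% of other peaks with no small RNA gene, 82.7% of tRNA summits and 0.54% of every 20th tiled window, and the W08A12 score by 64.9%, 94.6% and 0.75%. The windows at tRNA genes include the genes the profile was made from, so their scores are not independent of it.

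**Figure D4:**
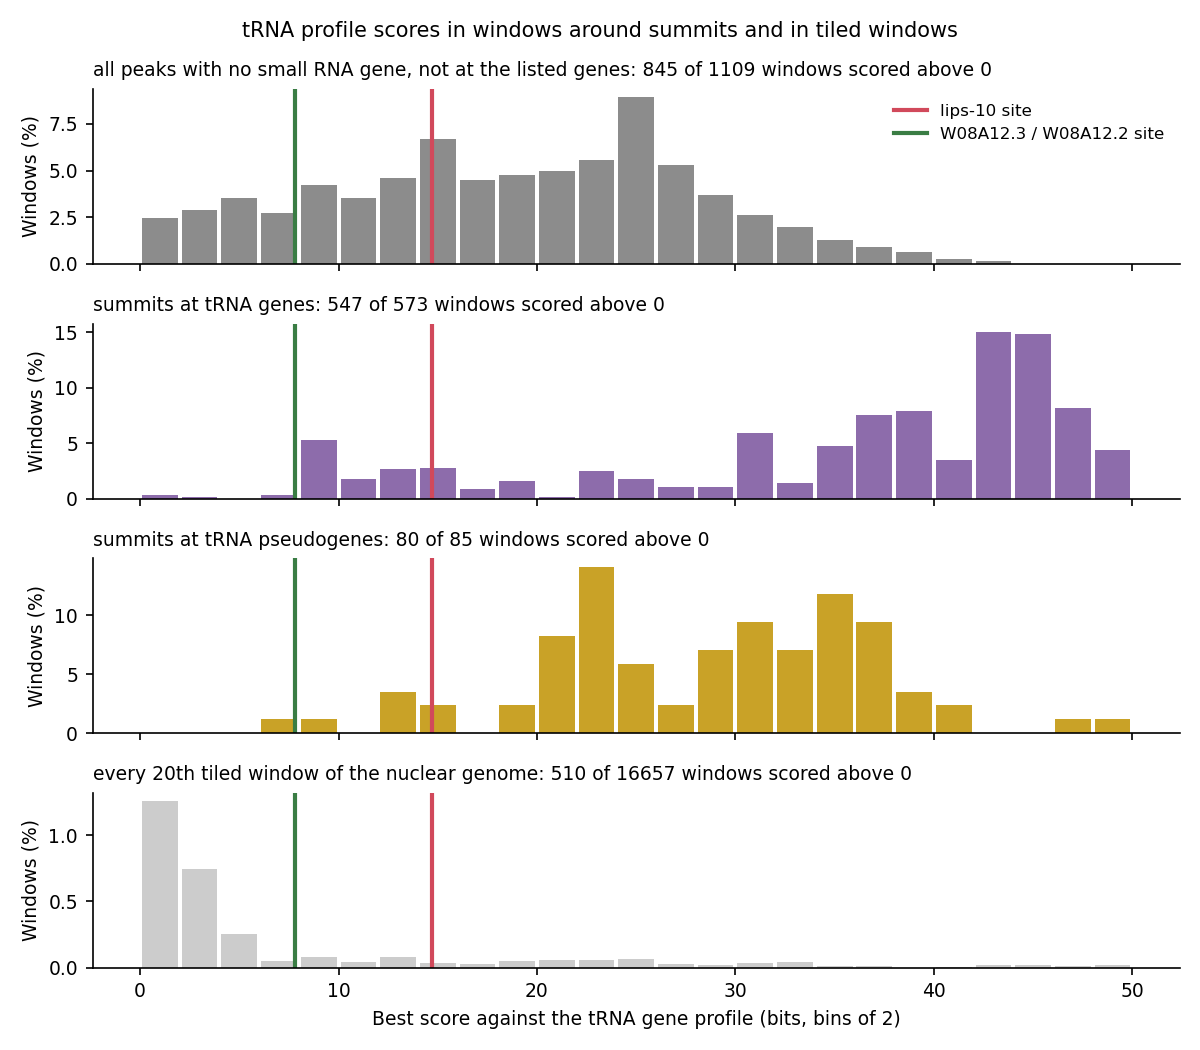
Best score against the tRNA gene profile in bits (x axis, bins of 2 bits) and the share of windows (y axis, percent of all windows of the set, including those with no score above 0). Vertical lines mark the *lips-10* site at 14.7 bits and the W08A12 site at 7.8 bits, and the *zip-7* site had no score above 0. Most tRNA summits lie to the right of both lines.

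None of the 3 windows matched another by blastn at an E value of 0.001. Against annotated small RNA genes only the *lips-10* window had a match, to the tRNA pseudogene K10B2.t1 over 52 bp with 78.8% identity and an E value of 1.73e-05. All 36-base words in the 3 windows occurred once in the nuclear genome. The median share of such words was also 100% over the 5 other strong peaks without a small RNA gene, over tRNA pseudogene summits and over snoRNA summits. It was 95.1% over the other peaks with no small RNA gene and 81.6% at tRNA summits.  The GC content was 38.2% at *zip-7*, 37.9% at *lips-10* and 40.2% at W08A12, against a median of 40.2% over all reproducible peaks.

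Elsewhere in the genome, 12 stretches resembled part of a site's window, 6 for *zip-7*, 5 for *lips-10* and 1 for W08A12. A search of this kind was added after the sites had been seen. Of the 12, 9 covered more than 50% of the box pair of their site, and 8 of these 9 overlapped a reproducible peak. Of the 3 that did not overlap the box pair, 0 overlapped one. The exception was a stretch in *snt-2*, which covered the whole box pair of *zip-7*, held a pair of its own and had no reproducible peak. A pair of their own was found in 8 of the 12 aligned stretches, of which 7 had a reproducible peak, and not in the other 4, of which 1 had one. That 1 was in *hst-3.1*, where the alignment covered 89.1% of the box pair of *lips-10*. These counts are of stretches that share sequence with each other and are not independent. Reproducible peaks cover 1.06% of the nuclear genome, which is a share of all bases and not of stretches with a box pair. Pairs with at most 1 mismatch in the B box stood at 52.6% of other peaks with no small RNA gene, against 0.522% of tiled windows. How often any stretch with a pair lies under a peak was not counted, so the 8 of 9 may not be particular to these relatives. Overlap was with the peak interval, and the summit of a peak could lie outside the stretch.

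The relatives of *lips-10* with the strongest peaks were on chromosome V, at chrV:5592057-5592156 and chrV:5667455-5667540, with ranks of 138 and 144 in the reproducible list, signals of 4399.7 and 4372, and identities of 76.7% and 75%. In the pooled list the *lips-10* site ranked 27 and these relatives 52 and 76. Its others with a peak were at K10B2.t1 in C32D5.12, with rank 460, and in *hst-3.1*, with rank 695. The 4 relatives of *zip-7* with a peak had ranks of 702, 746, 1056 and 1110, far below the rank of 15 at *zip-7* itself, with identities between 74.1% and 75.9%. In the pooled list *zip-7* ranked 12, and the relatives of ranks 702, 1056 and 1110 ranked 943, 1170 and 1077. The relative of rank 746, in the pseudogene *set-33*, overlapped no peak of the pooled list. The summits of the peaks of ranks 702 and 1110 lay outside the aligned stretches. The relative with the strongest peak of each site is printed below in the frame of its boxes, to be compared with the site it resembles. That of *zip-7* is at chrIII:9110946-9111047, minus strand, with 43 bp between the boxes, and that of *lips-10* at chrV:5592071-5592172, plus strand, with 43 bp.
relative of zip-7: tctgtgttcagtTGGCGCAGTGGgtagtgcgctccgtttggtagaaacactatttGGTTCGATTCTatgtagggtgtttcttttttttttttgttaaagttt
relative of lips-10: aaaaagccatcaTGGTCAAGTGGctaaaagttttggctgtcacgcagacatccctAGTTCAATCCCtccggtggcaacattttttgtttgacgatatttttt

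The *zip-7* site had 2 mismatches in its A box and this relative 0, and both had 1 in the B box. The signal was 6946 at *zip-7*, against 960.3 for the peak over the relative. The summit of that peak, at position 9110830, lay outside the aligned stretch chrIII:9110930-9111069, which holds the boxes. At *lips-10* the A box had 0 mismatches and that of its relative 1, both had 1 in the B box, and the signal was 6082 against 4399.7. The summit at this relative of *lips-10*, at position 5592087, lay inside its aligned stretch. The closer match to the A box was at the stronger peak in the *lips-10* pair. In the *zip-7* pair it was under the weaker peak, and which sequence the signal of that peak belongs to is not known. Only 1 relative of each site was compared. The *zip-7* relatives with peaks of ranks 746 and 1056, whose summits lay inside the aligned stretch, were not. Whether the match to the A box goes with the signal was not tested.

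**Figure D5:**
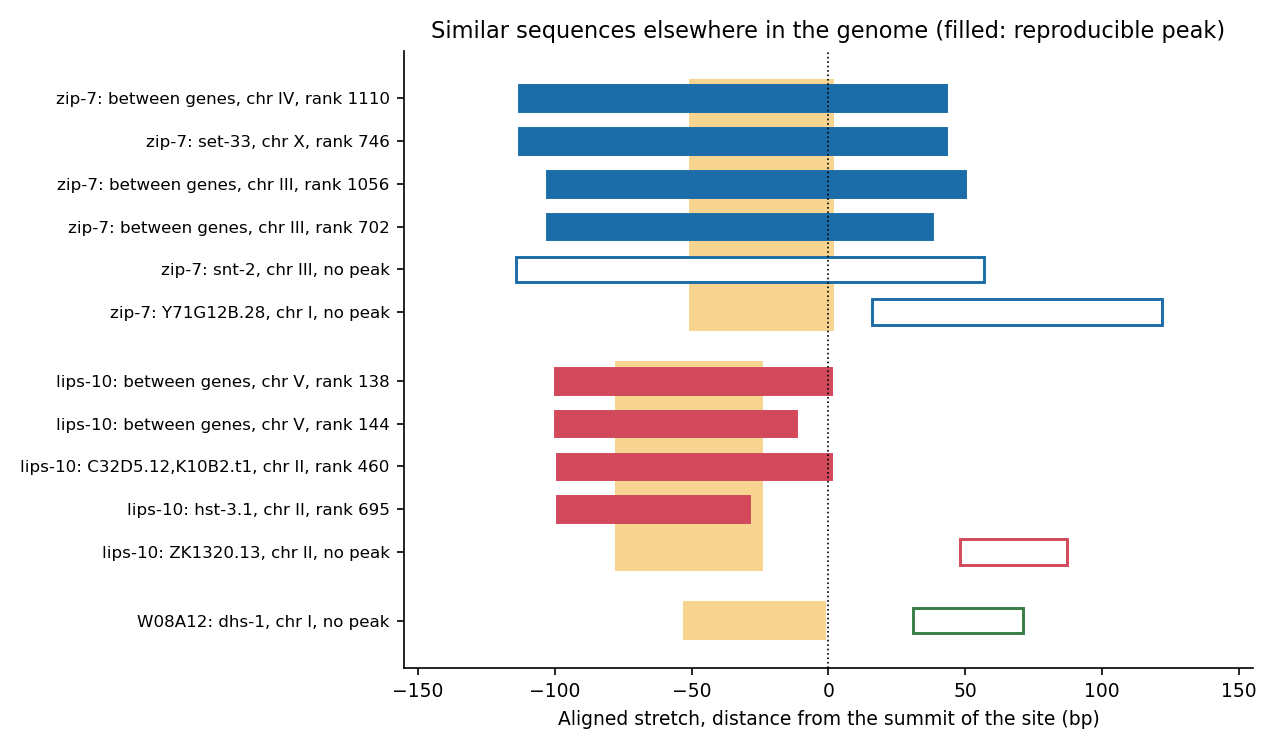
Stretches elsewhere in the genome that resemble the windows of the 3 sites. Bars show which part of the window each stretch aligns to, as distance in bp from the summit of the site (dotted line), and yellow bands mark the box pair of the site. Filled bars overlap a reproducible peak, whose rank is given, and open bars do not. The 8 filled bars all lie over a box pair.

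The rule chose *zip-7* and *lips-10* by their peaks, so their own counts in their gene families say nothing of the families. Of 12 *zip* genes 1, *zip-7*, had a reproducible peak over the gene or near its TSS, and of 14 *lips* genes 1, *lips-10*, against 879 of all 19971 protein-coding genes (4.4%). Peaks above 5000 stood at 76 of the 19971 genes (0.381%). Of the 84 peaks above 5000, 49 were at tRNA genes, 24 at snoRNA genes and 3 at other small RNA genes.

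The other 5 of the 8 strong peaks with no small RNA gene were at the non-coding RNA genes K10H10.11 and K10H10.14, at the pseudogene T26C11.3, at chromosome X position 4453286 with no gene within 200 bp, and at the protein-coding genes *srt-52* and *tlp-1*. Box pairs with at most 1 mismatch in the B box were found at 2 of the 3 sites and at 3 of these 5. The tRNA profile scored 14.7 bits at *lips-10*, below the 23.4 bits at *srt-52*. It scored 7.8 bits at W08A12, against 4.8 to 7.1 bits at 3 of the others, and no score above 0 was found at *zip-7* or at K10H10.11 and K10H10.14. By these measures the 3 sites lay within the range of the other strong peaks without a small RNA gene.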

How the data were processed

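Peaks of RPC-1 from 3 biological replicates of 1 group were taken from 5 peak lists on build ce11, as deposited by the authors. The reproducible list was derived from the pooled and replicate lists, per the deposited file list, but 0 of its 1914 intervals are found unchanged in any of them. Which calls its signals come from is thus not known, and this touches the threshold of 5000 and the ranks in that list. Which aligner and peak caller were used is not given in the sources used here. Each value used is the authors' deposited peak signal, set within each list, and served only for ranking, filtering and describing peaks of that list. The depth, and with it the precision of each value, is unknown, since the lists give no read numbers. Lists on ce10 were not used.

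Summits and intervals are counted from 1. The reference was WBcel235, the same assembly as ce11, with the RefSeq annotation, and 0 of 110562 peaks ran past a chromosome end. In a replicate or pooled list, a site is the strongest overlapping peak. No 2 replicates shared a peak with the same interval and summit (0 for each pair). Motifs were searched with a script tested on simulated data, similar sequences with blastn 2.17.0 (E value up to 0.001), and tRNA likeness with HMMER 3.4 on a MAFFT 7.526 alignment. Tiled windows are consecutive windows of the same length over the nuclear genome. Printed sequences are from the RefSeq genome. With 1 group no test was made, and values are the mean and SD of 3 replicates. Per the rule for named genes, the 3 peaks nearest in replicate ranks to each site are named. The sites, gene families, motifs and measures were chosen with earlier results of these data known, and the box pairs, the tRNA profile, the T runs and the similar sequences were added after the sites had been examined. Alternatives were other distances, thresholds, lists, peak choices and mismatches.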

Additional observations from a re-analysis of the deposited data

How the results depend on the processing

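No paired analysis was possible because there is 1 group. Of 66 alternatives, 60 left the value within 1.5 times the count or within 1 SD, and 6 did not. Leaving out 1 of 3 replicates cannot move their mean by 1 SD, so those alternatives were bound to be among the 60. A count of 2 in place of 3 is also within 1.5 times, so a lost site was scored as no change. The 60 is therefore no measure of how stable the results are. Ranked among the strongest 1914 peaks of each replicate in place of the whole list, the mean percentile was 99.43 at *zip-7*, 98.28 at *lips-10* and 91.88 at W08A12, since the denominator is smaller, against 99.96, 99.87 and 99.4. Counting only summits within 500 bp of a TSS, 0 *zip* and *lips* genes had a peak in place of 2. With 0 mismatches the A box was found at 1 site in place of 3, and in 0.29% of tiled windows. The B box with 0 mismatches was found at 0 sites in place of 2, and in 0.57% of tiled windows. The rule found 2 sites in place of 3 with a threshold of 6000 or with the pooled list, and W08A12 was the one lost. Leaving out each replicate in turn, the percentile ranged over 99.95 to 99.96 at *zip-7*, 99.84 to 99.9 at *lips-10* and 99.3 to 99.49 at W08A12. The summit offset ranged over 11.5 to 12 bp, -15 to -5 bp and 5 to 12 bp, and the width over 882.5 to 993 bp, 1062.5 to 1179 bp and 930.5 to 953 bp, in the same order. Chosen after seeing the data, up to 2 or 3 mismatches in the B box of a pair gave 2 and 3 sites, against 2 with up to 1.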
